A study of Mus musculus with 36 samples.

Results

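The mRNAs of 4 genes that clear monoamines outside the classical reuptake route were followed in the anterior cingulate cortex (aCC) of female mice. They were Maoa and Maob, which encode the monoamine oxidases, and Slc22a3 and Slc29a4, which encode the uptake-2 carriers OCT3 and PMAT. The 4 genes were chosen by name for what their proteins do, with earlier results of these data known, out of 52636 genes listed. All 4 were among the 25572 genes that passed the filter on low values.

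The 36 libraries came from 4 groups: 8 WT mice given vehicle (saline), 9 Brd1+/- mice given vehicle, 10 WT mice given imipramine (IMN) at 10 mg/kg, and 9 Brd1+/- mice given the same dose of IMN, a tricyclic that blocks neuronal reuptake of serotonin and noradrenaline. Brd1+/- mice were heterozygous for a targeted Brd1 deletion on the C57BL/6NTac background and carried it in all cells, and the WT mice were from matched litters. All mice were 8 to 11 weeks old, were injected subcutaneously on 2 days, and had been through tail suspension, open field and forced swim testing, so the vehicle mice were not naive to stress. Each library was made from a needle punch of the right aCC taken about 1 h after the swim, and held all cell types of the punch.

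Monoamines that are released in cortex are removed by high-affinity (uptake-1) carriers on the monoamine axons, whose cell bodies and mRNA lie in the brainstem, and by low-affinity, high-capacity uptake-2 carriers on neurons, glia and vessels within the tissue. Inside cells the amines are oxidized at the outer mitochondrial membrane by MAO-A, which prefers serotonin and noradrenaline and by MAO-B, which prefers phenylethylamine. Tissue with local clearance enzymes but no monoamine cell bodies is therefore known to hold Mao and uptake-2 transcripts without those of the uptake-1 carriers.

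Values are TPM, the abundance of each transcript scaled for its length and for the total of its library, a per-length scale on which levels of different genes can be set side by side, and the number of reads behind each value is not known. Brd1 was lower in Brd1+/- mice, at 13.8 to 20.9 TPM against 22.6 to 31.9 TPM in WT mice with vehicle and at 13.5 to 19.4 TPM against 17.9 to 27.8 TPM with IMN. The difference over both treatments was -0.54 on the log2 scale (SE 0.067, limma, adjusted p = 2.83e-05). All 6 upper-layer, 7 deep-layer and 7 interneuron markers had a median of at least 1 TPM. Replicate 6 of the Brd1+/- vehicle group stood apart, with a striatal marker score (mean log2 level of the list) of 5.75 where the other 35 libraries reached at most 2.90, and a choroid plexus score of 4.86 where the others reached at most 0.32. Replicate 1 of the WT vehicle group had the lowest mean correlation with its own group (0.965) and the lowest immediate-early gene score of all 36 libraries, 4.45, with an upper-layer score of 4.79 below a median of 5.55 in the others. Results that rest on these 2 libraries are given with and without them.

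On GRCm38, Maoa (ENSMUSG00000025037) spans X:16619698-16687818 on the plus strand and Maob (ENSMUSG00000040147) spans X:16709282-16817366 on the minus strand, so that the genes end towards each other with 21463 bases between them. Slc22a3 (ENSMUSG00000023828) spans 17:12418960-12507704 on the minus strand and shares 426 bases with Plg on the opposite strand, which was listed at a median of 0 TPM. An antisense transcript, AC132106.1, lies within the span of Slc22a3 and was not among the genes listed. Its overlap with the exons of Slc22a3 was not examined, and the strand setting of the counting is not given in the sources used here. Whether its reads entered the Slc22a3 values is therefore not known. Slc29a4 (ENSMUSG00000050822) spans 5:142692512-142722490 on the plus strand.

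The RefSeq promoter table (GRCm38.p6) held an entry for 3 of the 4 genes, and Maob was not matched. The 250 bases before each start are shown because Mao transcription is known to run through GC boxes bound by Sp1-type factors, and because the 2 transporters varied together from library to library. The capitals mark the letters GGGCGG on either strand (CCGCCC on the printed strand), with overlapping matches counted. The windows are chrX:16619448-16619697 on the plus strand for Maoa, chr17:12507705-12507954 on the minus strand for Slc22a3 and chr5:142701851-142702100 on the plus strand for Slc29a4, whose RefSeq start lies within the span of the gene model above.
Maoa: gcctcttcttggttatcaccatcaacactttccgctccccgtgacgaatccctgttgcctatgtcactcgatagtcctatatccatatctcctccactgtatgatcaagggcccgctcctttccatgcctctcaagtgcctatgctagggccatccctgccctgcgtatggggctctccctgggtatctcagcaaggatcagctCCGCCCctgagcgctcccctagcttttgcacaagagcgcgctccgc
Slc22a3: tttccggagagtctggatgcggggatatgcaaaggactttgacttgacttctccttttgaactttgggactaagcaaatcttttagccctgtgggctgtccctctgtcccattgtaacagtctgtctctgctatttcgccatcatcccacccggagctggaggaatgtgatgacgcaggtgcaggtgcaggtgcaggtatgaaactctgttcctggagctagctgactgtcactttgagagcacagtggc
Slc29a4: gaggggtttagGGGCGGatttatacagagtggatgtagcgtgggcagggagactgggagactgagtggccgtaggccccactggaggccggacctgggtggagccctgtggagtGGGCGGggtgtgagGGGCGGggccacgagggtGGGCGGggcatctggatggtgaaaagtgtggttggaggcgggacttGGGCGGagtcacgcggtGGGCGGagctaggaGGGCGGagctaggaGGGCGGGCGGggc
Maoa held 1 match, Slc22a3 held 0 and Slc29a4 held 9. Of 32851 RefSeq promoter windows of the same length, 32.7% held at least 1 match and 0.0731% held 9 or more. The GC content was 68.8% for Slc29a4, 56.8% for Maoa and 51.2% for Slc22a3, with a median of 52.4% over all windows. These matches are a description of the letters and not of binding.

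Over all 36 libraries the levels fell in the order Maob, Maoa, Slc29a4 and Slc22a3. Maob, the oxidase typical of astrocytes and serotonin neurons, ranged from 12.1 to 25.1 TPM with a median of 18.1 TPM. Maoa, the oxidase typical of catecholamine neurons, ranged from 9.27 to 15.9 TPM with a median of 11.99 TPM. Their ranges overlapped across libraries, but within each library Maob was above Maoa in 36 of 36, by a median ratio of 1.51 (range 1.00 to 2.00).

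Slc29a4, whose product PMAT carries serotonin and dopamine in brain, ranged from 1.34 to 11.3 TPM with a median of 5.88 TPM, and lay below Maoa in 35 of 36 libraries. The exception was Brd1+/- IMN replicate 9, with 10.4 TPM of Slc29a4 and 10.2 TPM of Maoa. Slc22a3, whose product OCT3 carries noradrenaline, serotonin and histamine and is blocked by corticosterone, was the lowest, from 0.15 to 1.11 TPM with a median of 0.56 TPM. Slc29a4 was above Slc22a3 in 36 of 36 libraries, by a median ratio of 11.1 (range 4.74 to 36.5). Among the genes tested, the median levels stood at percentiles 70.9 for Maob, 63.8 for Maoa, 53.5 for Slc29a4 and 25.3 for Slc22a3.

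The uptake-1 carriers were at or near 0. The serotonin transporter Slc6a4 was listed at 0 in all 36 libraries, the noradrenaline transporter Slc6a2 was above 0 in 4 libraries, reaching 0.049 TPM, and the dopamine transporter Slc6a3 in 3, reaching 0.059 TPM. The vesicular carrier Slc18a2 was at a median of 2.91 TPM and was the only 1 of 5 uptake-1 and vesicular transporters to pass the filter, while Slc18a1 had a median of 0. Of 8 other low-affinity transporters, all of which passed the filter, the nucleoside carrier Slc29a1 was the highest at 11.7 TPM, and the proton exchanger Slc47a1 was at a median of 0. Slc22a2, an organic cation transporter, was at a median of 0.28 TPM, below the 0.56 TPM of Slc22a3; it is named after its values were seen.

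All 10 other breakdown enzymes had a median of at least 1 TPM. The aldehyde reductase Akr1a1, which reduces the aldehydes that the oxidases form, was the highest at 267 TPM, and the indolethylamine methyltransferase Inmt the lowest at a median of 2.13 TPM (range 0 to 6.90 TPM). Of 11 synthesis genes, the pterin recycling enzyme Qdpr was the highest at 72.8 TPM, and Dbh and Pnmt, which make noradrenaline and adrenaline, had medians of 0.

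**Figure D1:**
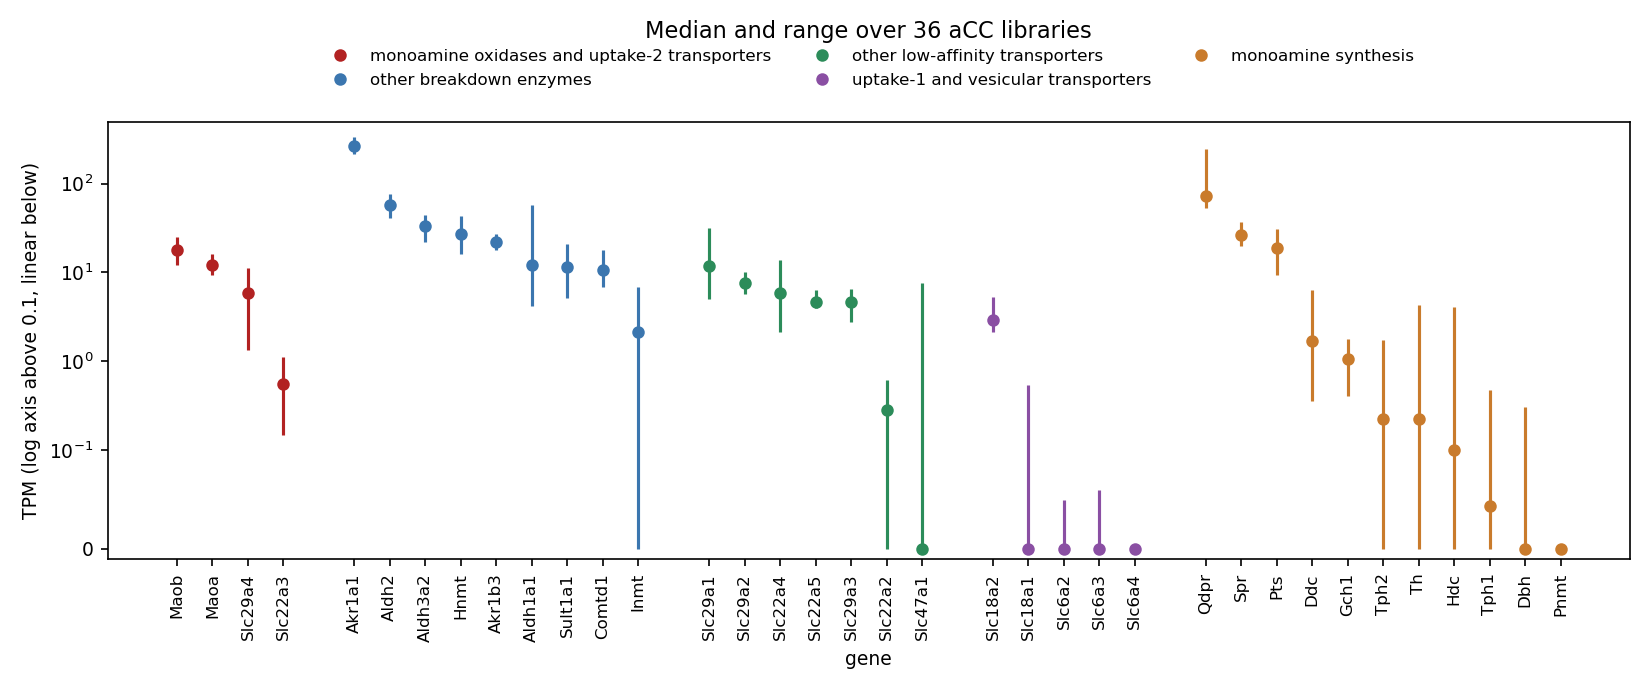
Median TPM (points) and range from the lowest to the highest library (lines) over 36 aCC libraries for the 4 genes and genes of 4 lists of the same pathway; the axis is logarithmic above 0.1 TPM and linear below. Maob and Maoa sit at 18.1 and 11.99 TPM, whereas Slc6a2, Slc6a3, Slc6a4 and Slc18a1 sit at a median of 0.

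The 4 groups were then compared for each gene. Differences are on the log2(TPM + 0.5) scale, which understates changes of low genes such as Slc22a3, and adjusted p-values are from limma over all 25572 genes. None of the 4 genes passed an adjusted p of 0.05 in any of 7 comparisons, and none passed an unadjusted p of 0.05 in limma or in the 16 two-sided exact permutation tests. Over all genes, the share with an adjusted p under 0.05 was 0% for Brd1+/- against WT with vehicle, 0% with IMN, 0.00782% for IMN in Brd1+/- mice, 0% for IMN in WT mice, 0% for the interaction, 0.274% for IMN over both genotypes and 0.00391% for genotype over both treatments. The shares with an unadjusted p under 0.05 were, in the same order, 3.75%, 3.23%, 5.52%, 6.6%, 3.2%, 9.38% and 3.62%. Brd1 itself did not pass the adjusted threshold in the genotype comparisons with vehicle or with IMN, so a lack of calls there is weak information. By the study's methods each library came from a separate mouse.

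Maoa was the steadiest of the 4. In WT vehicle mice it ranged from 9.69 to 15.5 TPM with a median of 11.9, and in Brd1+/- vehicle mice from 9.27 to 15.3 TPM with a median of 12.9. In the IMN groups Maoa ranged from 10.8 to 15.1 TPM with a median of 11.8 in WT mice, and from 10.2 to 15.9 TPM with a median of 11.9 in Brd1+/- mice. The groups overlapped almost fully. The group means were 12.3 ± 1.91 TPM (SD, n = 8), 12.5 ± 1.80 (n = 9), 12.2 ± 1.44 (n = 10) and 12.4 ± 1.87 (n = 9), in the order of the groups above. Over both genotypes the level with IMN was 99.8% of that with vehicle (95% interval 91.0% to 109.3%), and over both treatments the level in Brd1+/- mice was 101.3% of that in WT mice (92.5% to 111.0%).

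Maob ranged from 12.2 to 25.1 TPM with a median of 19.0 in WT vehicle mice and from 13.6 to 23.7 TPM with a median of 20.5 in Brd1+/- vehicle mice. The IMN groups ranged from 12.1 to 24.2 TPM with a median of 17.1 in WT mice and from 14.6 to 23.9 TPM with a median of 17.0 in Brd1+/- mice. The ranges again overlapped, and the lowest library was a WT IMN mouse and the highest a WT vehicle mouse. Among the Brd1+/- animals the difference with IMN was -0.15 (SE 0.11, p = 0.213 by exact permutation), with 7 of 9 mice below the vehicle mean. Over both genotypes the level with IMN was 94.0% of that with vehicle (95% interval 83.2% to 106.3%), and over both treatments the level in Brd1+/- mice was 104.1% of that in WT mice (92.1% to 117.7%).

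Slc29a4 ranged from 1.34 to 10.6 TPM with a median of 7.74 in WT vehicle mice and from 3.67 to 11.3 TPM with a median of 5.08 in Brd1+/- vehicle mice. Slc29a4 with IMN ranged from 2.64 to 9.75 TPM with a median of 5.26 in WT mice and from 4.62 to 10.4 TPM with a median of 5.84 in Brd1+/- mice. The 2 libraries that stood apart held the ends of the vehicle values, with 1.34 TPM in WT vehicle replicate 1 and 11.3 TPM in Brd1+/- vehicle replicate 6. With all libraries the differences were -0.13 (SE 0.29, exact permutation p = 0.714) for Brd1+/- against WT with vehicle and -0.27 (SE 0.30, exact permutation p = 0.433) for IMN in WT mice.

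Without those 2 libraries the same Slc29a4 differences were -0.52 (unadjusted p = 0.00339, adjusted p = 0.657) and -0.54 (unadjusted p = 0.0272, adjusted p = 0.408), and the interaction was 0.73 in place of 0.35 (unadjusted p = 0.0125, adjusted p = 0.992). This omission was chosen after the data were seen, and none of the values passed the adjusted threshold. It took out the lowest WT vehicle and the highest Brd1+/- vehicle value of this gene, so these differences could only move away from 0. The 95% interval with all libraries ran from 59.9% to 139.1% of the WT level with vehicle, a width within which changes of this gene were not detectable. The choroid plexus is known to carry PMAT in its epithelium. Its 10 markers, 8 of which passed the filter and 0 of which had a median of at least 1 TPM, gave a score of 4.86 in Brd1+/- vehicle replicate 6 and of at most 0.32 elsewhere, and their part in that library's Slc29a4 value was not tested.

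Slc22a3 ranged from 0.28 to 1.11 TPM with a median of 0.75 in WT vehicle mice and from 0.21 to 1.07 TPM with a median of 0.47 in Brd1+/- vehicle mice. Slc22a3 with IMN ranged from 0.15 to 1.03 TPM with a median of 0.40 in WT mice and from 0.17 to 0.96 TPM with a median of 0.61 in Brd1+/- mice. The WT vehicle group was the highest by its median, and all 4 groups overlapped. The difference was -0.31 (SE 0.17, exact permutation p = 0.103) for Brd1+/- against WT with vehicle, with 7 of 9 mice below the WT mean.

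For IMN in WT mice the Slc22a3 difference was -0.34 (SE 0.17, exact permutation p = 0.0659), with 8 of 10 mice below the vehicle mean. The difference with IMN among the Brd1+/- animals had the other sign, 0.15 (SE 0.18, p = 0.416 by exact permutation). The genotype by IMN term was 0.49 (SE 0.25, unadjusted p = 0.0546, adjusted p = 1.00). Without WT vehicle replicate 1, whose 0.28 TPM was the lowest of its group, the 3 values were -0.40 (unadjusted p = 0.0295) for genotype with vehicle, -0.43 (unadjusted p = 0.0160) for IMN in WT mice and 0.58 (unadjusted p = 0.0230) for the interaction, and their adjusted p-values were 0.727, 0.351 and 0.993. With all libraries and a pseudocount of 0.1 in place of 0.5, the differences for genotype with vehicle, IMN in WT mice and the interaction were -0.53, -0.58 and 0.84 (limma, adjusted p = 1.00, 0.768 and 1.00). With a pseudocount of 1 they were -0.21, -0.23 and 0.32 (limma, adjusted p = 1.00, 0.767 and 1.00). Between 3.2% and 6.6% of all genes had an unadjusted p under 0.05 in these comparisons. Since WT vehicle replicate 1 was the lowest of its group, leaving it out could only move these Slc22a3 differences away from 0.

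**Figure D2:**
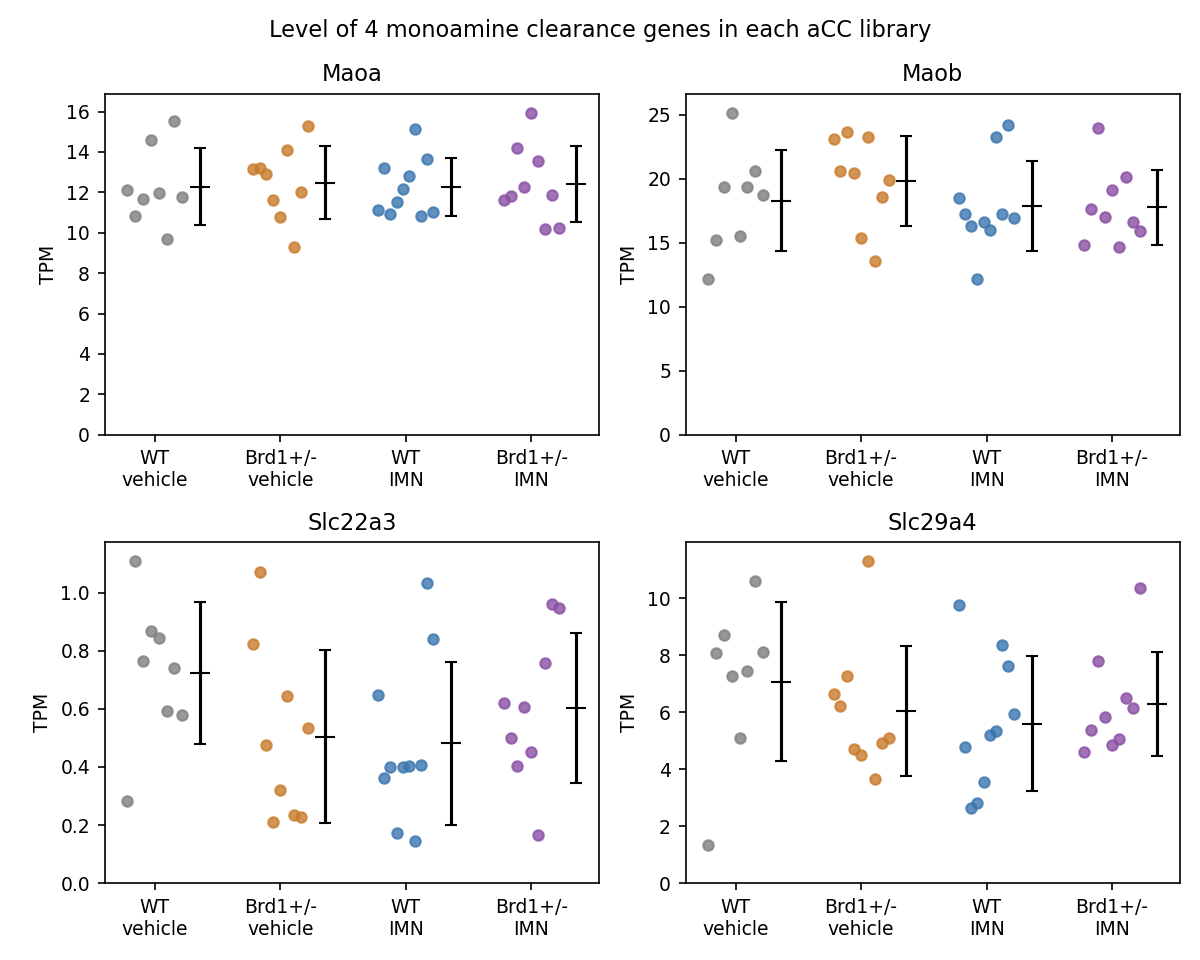
TPM of Maoa, Maob, Slc22a3 and Slc29a4 in each of the 36 aCC libraries (points) by group, with the group mean and SD beside them; axes start at 0. The groups overlap for every gene, and WT vehicle replicate 1 is the lowest point for Slc29a4, at 1.34 TPM.

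**Figure D3:**
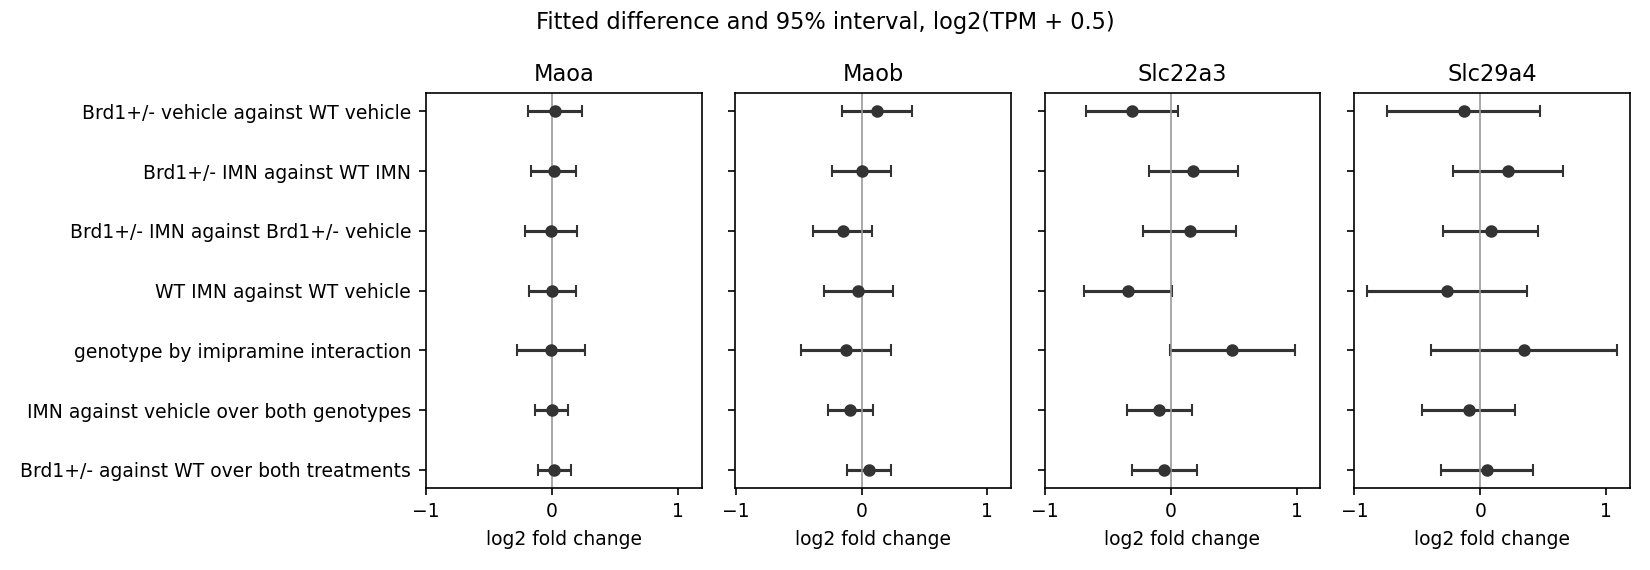
Log2 fold changes (points) with 95% intervals (bars) of the 4 genes in 7 comparisons on the log2(TPM + 0.5) scale. All intervals include 0, those of Maoa are the narrowest, and for IMN over both genotypes they run from -0.14 to 0.13.

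The lists of the same pathway were examined in the same fit, with the adjusted p over all genes. The lists were chosen with earlier results of these data known. Their counts beside the shares of all genes are therefore not an independent test. Of 10 other breakdown enzymes, 1 rose with IMN over both genotypes and 0 fell, where 0.0899% of all genes rose and 0.184% fell. The list's median difference was 0.01 and that of all genes was -0.0023. The 1 gene was Sult1a1, a sulfotransferase that conjugates phenols. Of 8 other low-affinity transporters, 8 tested synthesis genes and the 1 tested vesicular transporter, 0 passed in any of the 7 comparisons, with unadjusted p-values under 0.05 for Slc29a1 in 2 of them, Ddc in 1 and Slc18a2 in 4 (Slc29a1 and Ddc are named after their values were seen).

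Sult1a1 ranged from 5.18 to 11.0 TPM with a median of 9.18 in WT vehicle mice and from 5.65 to 12.4 TPM with a median of 8.12 in Brd1+/- vehicle mice. With IMN it ranged from 10.8 to 14.5 TPM with a median of 13.4 in WT mice and from 11.0 to 20.7 TPM with a median of 13.1 in Brd1+/- mice. All 10 WT mice given IMN were above the WT vehicle mean and 9 of 10 above its highest library, and all 9 Brd1+/- mice given IMN were above their vehicle mean, 6 of them above its highest library.

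Over both genotypes Sult1a1 reached 156.7% of the vehicle level (95% interval 136.0% to 180.7%), a difference of 0.65 (SE 0.10, adjusted p = 0.00121). Within WT mice the difference was 0.58 (SE 0.11, exact permutation p = 4.57e-05, adjusted p = 0.242) and within Brd1+/- mice 0.72 (SE 0.16, exact permutation p = 0.00128, adjusted p = 0.488). The difference between the genotypes in this response was 0.14 (SE 0.20, adjusted p = 1.00). Sult1a1 (7:126672865-126676432, minus strand, GRCm38) shares 61 bases at its 3' end with Sgf29 on the other strand, and counting by strand is not stated. Inmt was at 57.8% of the vehicle level with IMN (95% interval 39.5% to 84.6%, unadjusted p = 0.00607) and did not pass (adjusted p = 0.264).

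The list of regulators of Mao transcription was also chosen with earlier results of these data known. Among its 8 genes, 1 fell and 0 rose with IMN over both genotypes, beside 0.184% and 0.0899% of all genes, and the list's median difference was 0.01. The gene was Egr1, an immediate-early transcription factor and the most abundant of the list at a median of 225 TPM; the lowest was Cdca7l, a repressor of Maoa, at 0.10 TPM. Egr1 ranged from 178 to 415 TPM with a median of 291 in WT vehicle mice and from 236 to 437 TPM with a median of 312 in Brd1+/- vehicle mice. With IMN it ranged from 154 to 287 TPM with a median of 195 in WT mice and from 95.5 to 340 TPM with a median of 187 in Brd1+/- mice. The ranges overlapped, but all 10 WT mice and 8 of 9 Brd1+/- mice given IMN were below their vehicle mean.

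The Egr1 difference over both genotypes was -0.66 (SE 0.13, adjusted p = 0.00939), with -0.54 in WT mice (exact permutation p = 0.00624) and -0.78 in Brd1+/- mice (exact permutation p = 0.00128). Of 13 other immediate-early genes on a marker list, 10 were lower with IMN at an unadjusted p under 0.05, where 5.48% of all genes were, and 2 passed the adjusted threshold. These were Arc, which encodes a synaptic activity marker, at -0.67 (adjusted p = 0.0108), and Npas4, an activity-driven transcription factor named after its values were seen, at -0.94 (adjusted p = 0.00318). Without the 2 libraries that stood apart, 8 of the 13 passed the adjusted threshold, all lower, where 164 of all 25572 genes passed in place of 70. This omission was chosen after the data were seen. It took out WT vehicle replicate 1, which had the lowest immediate-early score of all 36 libraries (4.45), and so raised the WT vehicle mean of that score. The counts of 1 for the breakdown enzymes and 1 for the regulators were the same. With all libraries Maoa and Maob differed by -0.0036 and -0.09 for IMN over both genotypes.

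The vesicular monoamine carrier Slc18a2 ranged from 2.65 to 3.55 TPM with a median of 3.18 in WT vehicle mice and from 2.31 to 5.28 TPM with a median of 3.57 in Brd1+/- vehicle mice. With IMN it ranged from 2.32 to 3.56 TPM with a median of 2.88 in WT mice and from 2.14 to 2.98 TPM with a median of 2.43 in Brd1+/- mice, all 9 of which were below the Brd1+/- vehicle mean. The difference with IMN among Brd1+/- animals was -0.43 (SE 0.12, p = 0.000946 by exact permutation) and that over both genotypes -0.25 (SE 0.076), and neither passed over all genes (adjusted p = 0.543 and 0.170). The interaction was -0.36 (SE 0.14, unadjusted p = 0.0159, adjusted p = 1.00). The highest Slc18a2 value, 5.28 TPM, was that of Brd1+/- vehicle replicate 6, a library that stood apart. Without that library the difference with IMN among Brd1+/- animals was -0.36 in place of -0.43. The interaction without it is not reported here. Oligodendrocyte markers had a median difference of 0.41 with IMN over both genotypes and 0 of 10 had an unadjusted p under 0.05. Their part was not tested apart from a fit with astrocyte and oligodendrocyte scores as terms. Over the alternative settings, that fit included, the difference over both genotypes ran from -0.28 to -0.21 for Slc18a2 and from 0.59 to 0.69 for Sult1a1. It ran from -0.71 to -0.61 for Egr1 and from -1.08 to -0.63 for Inmt. Inmt passed the adjusted threshold under 1 of these settings (limma, adjusted p = 0.0477).

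**Figure D4:**
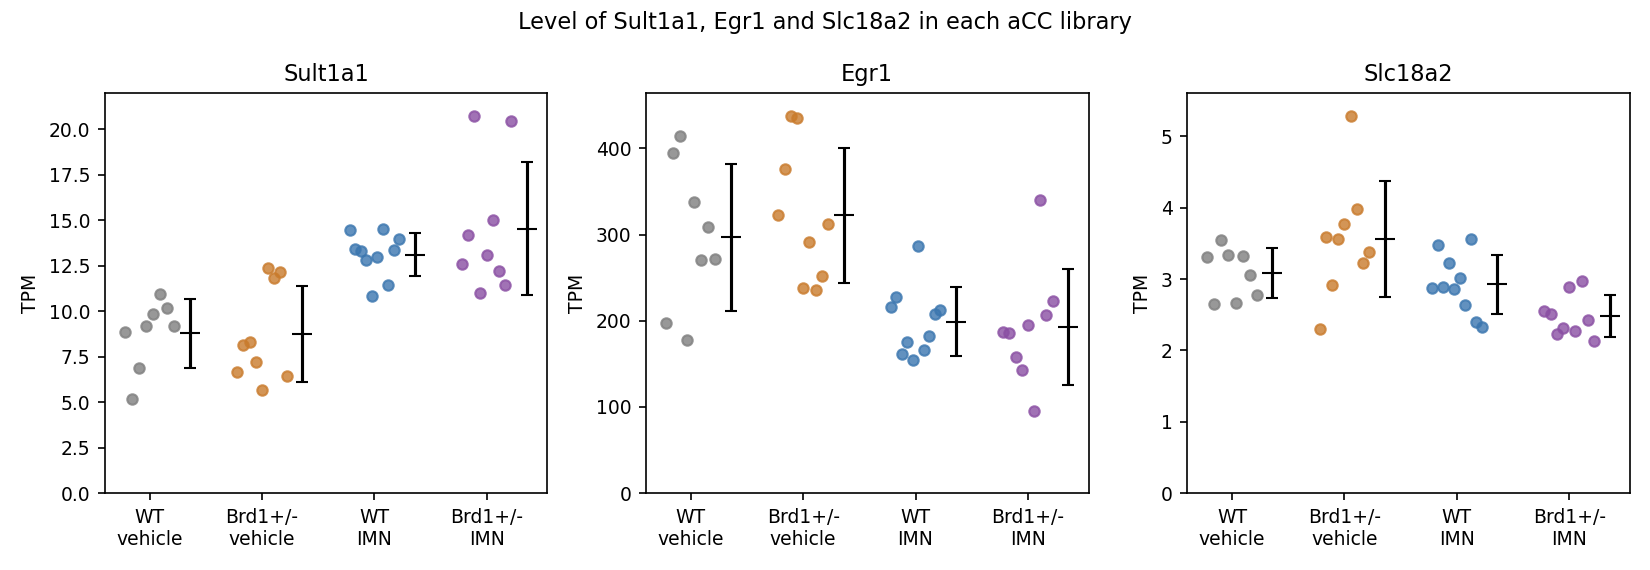
TPM of Sult1a1, Egr1 and Slc18a2 in each of the 36 aCC libraries (points) by group, with the group mean and SD beside them; axes start at 0. Sult1a1 is higher with IMN in both genotypes, at group means of 13.1 and 14.5 TPM against 8.79 and 8.75 TPM, and Egr1 is lower.

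Since the groups did not account for the spread of the 4 genes, their levels were compared with marker lists of 11 cell types or states, after subtracting each group's mean. In bulk tissue, fewer cells of a type and less RNA per cell cannot be told apart. Of 50 relations, made of 44 with marker scores and 6 between the genes, 24 had an adjusted permutation p under 0.05 for Pearson's r, and 17 of these also passed for Spearman's rho and without the 2 libraries farthest on the marker score. By gene, r passed for 3 of 11 marker lists with Maoa, 5 with Maob, 5 with Slc22a3 and 8 with Slc29a4. The share of all genes that would pass with these scores was not examined. The relations are therefore not shown to be particular to these genes. The p-values are from 100000 permutations, for which 1e-05 is the smallest possible.

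Maob had the closest relation. It was lower where interneuron markers were higher, with r = -0.83 and rho = -0.78 over 36 libraries (permutation p = 1e-05 for both, adjusted p = 0.000500) and r = -0.81 without the 2 farthest. Pvalb, 1 of the 7 genes of this score, had r = -0.88 with Maob on its own. It ranged from 8.30 to 215 TPM, where Vip ranged from 24.6 to 121 TPM, Gad1 from 112 to 193 TPM and Sst from 371 to 763 TPM. The relation of the score without Pvalb was not tested. Within groups r was -0.93 in WT vehicle, -0.67 in Brd1+/- vehicle, -0.83 in WT IMN and -0.86 in Brd1+/- IMN mice. Maob was higher where microglial markers were higher (r = 0.65, rho = 0.65, adjusted permutation p = 0.000875 and 0.00150), but in the Brd1+/- vehicle group this r was 0.23. Its relation with astrocyte markers did not pass, with r = 0.31 and rho = 0.20 (adjusted permutation p = 0.123 and 0.354).

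Maoa followed the cortical layers. It was higher with deep-layer markers (r = 0.62, rho = 0.60, adjusted permutation p = 0.00108 and 0.00300), with r from 0.58 to 0.74 within the 4 groups, and lower with upper-layer markers (r = -0.50, rho = -0.52, adjusted permutation p = 0.0112 and 0.0115). Within groups the upper-layer r was -0.30 in WT vehicle, -0.19 in Brd1+/- vehicle, -0.62 in WT IMN and -0.87 in Brd1+/- IMN mice. Maoa was also lower with interneuron markers (r = -0.54, rho = -0.46, adjusted permutation p = 0.00659 and 0.0241). Without the 2 farthest libraries the r for deep-layer, upper-layer and interneuron markers were 0.61, -0.49 and -0.50.

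Slc22a3 differed from Maoa in being higher with upper-layer markers (r = 0.67, rho = 0.63, adjusted permutation p = 0.000750 and 0.00175), with r from 0.44 to 0.78 within groups and 0.59 without the 2 farthest libraries. Its relation with deep-layer markers did not pass (r = -0.35, rho = -0.35, adjusted permutation p = 0.0877 and 0.0942). Slc22a3 was lower with oligodendrocyte markers (r = -0.63, rho = -0.59, adjusted permutation p = 0.000875 and 0.00300, r = -0.54 without the 2 farthest). Beside these relations, the upper-layer list had a median difference of -0.23 for IMN in WT mice and the oligodendrocyte list 0.61, with 1 of 6 and 0 of 10 genes at an unadjusted p under 0.05. The part of the upper-layer list in the Slc22a3 value of that comparison was not tested. With astrocyte and oligodendrocyte scores in the fit, that Slc22a3 difference was -0.21 in place of -0.34.

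Slc29a4 was higher with immediate-early genes (r = 0.64, rho = 0.50, adjusted permutation p = 0.00633 and 0.0139), and r was 0.44 without the 2 farthest libraries. Within groups r was 0.91 in WT vehicle mice, where replicate 1 was lowest on both, and -0.06 in Brd1+/- vehicle mice. It was higher with meningeal fibroblast markers (r = 0.54, rho = 0.51, adjusted permutation p = 0.00633 and 0.0139) and lower with interneuron markers (r = -0.51, rho = -0.49, adjusted permutation p = 0.0171 and 0.0149). Slc29a4 was also higher with choroid plexus markers (r = 0.34, rho = 0.39, adjusted permutation p = 0.0234 and 0.0259), with r = 0.28 without the 2 farthest libraries (adjusted permutation p = 0.0388). Within groups this r was 0.51 in WT vehicle, 0.78 in Brd1+/- vehicle, 0.54 in WT IMN and -0.28 in Brd1+/- IMN mice. The Brd1+/- vehicle value holds replicate 6, which was highest of its group on both, with a score of 4.86 and 11.3 TPM. All other libraries scored at most 0.32, and 0 of the markers had a median of at least 1 TPM.

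**Figure D5:**
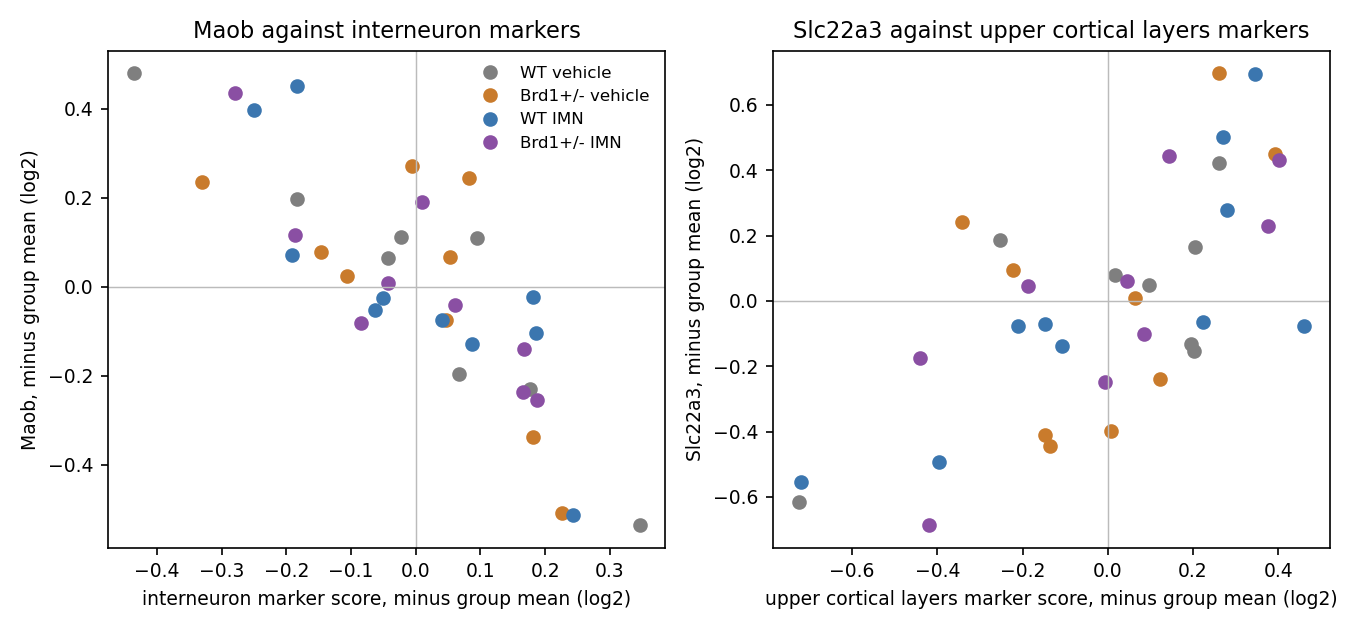
Each library's Maob level against its interneuron marker score (left) and Slc22a3 level against its upper-layer marker score (right), all as log2 values minus the mean of the library's group; colours mark the 4 groups. Maob falls with the interneuron score (r = -0.83) and Slc22a3 rises with the upper-layer score (r = 0.67), with the groups intermixed.

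Between the genes, Maoa and Maob varied together (r = 0.53, rho = 0.50, adjusted permutation p = 0.00659 and 0.0139), as did Slc22a3 and Slc29a4 (r = 0.56, rho = 0.55, adjusted permutation p = 0.00400 and 0.00729) and Maob and Slc29a4 (r = 0.63, rho = 0.61, adjusted permutation p = 0.00108 and 0.00150). Without the 2 farthest libraries these r were 0.53, 0.57 and 0.50. Maoa and Slc22a3 had r = -0.02, Maoa and Slc29a4 r = 0.12, and Maob and Slc22a3 r = 0.35 (adjusted permutation p = 0.937, 0.624 and 0.0773).

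The search for similar patterns covered 17672 genes that averaged 1 TPM or more. The 3 genes most like Maoa by r over the 36 centred libraries were Ryr3 (0.87), an intracellular calcium channel, Efnb3 (0.85), a membrane ephrin, and Qpct (0.83), a glutaminyl cyclase. Those most like Maob were Mapk3 (0.88), the kinase ERK1, Usp11 (0.85), a deubiquitinase, and Necab2 (0.84), a neuronal calcium-binding protein. Those most like Slc22a3 were Rasgrf2 (0.81), an upper-layer marker of the list used above, Ankfn1 (0.80) and Pcdhga6 (0.79), a protocadherin of a family with near-identical exons. Those most like Slc29a4 were Zfp423 (0.81), a zinc finger transcription factor, Ybx1 (0.80), an RNA-binding protein, and Cacng4 (0.79), an AMPA receptor auxiliary subunit. The genes most opposed, named after their values were seen, were Pvalb for Maob (-0.88), an interneuron marker of the list, and Lamp5 for Maoa (-0.84), an upper-layer marker of the list.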

How the data were processed

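The deposited table held TPM per gene for 36 aCC libraries. As the labels and the study's methods state, the authors sequenced 50 bp single-end reads on the BGISEQ-500 platform, aligned them to GRCm38 with HISAT2 2.1.0 and estimated TPM with StringTie 1.3.4. Counts were not used here, so read depth is unknown and limma replaced the count test of the study. Columns were matched to samples by title.

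A gene was tested if 8 or more libraries reached 0.1 TPM. The tests were made with limma 3.58.1 (R 4.3.3) on log2(TPM + 0.5), with Benjamini-Hochberg adjustment over all genes tested. Comparisons of 2 groups used only those groups. The interaction and the pooled comparisons used all libraries, with the other factor as a term. Members were also tested by two-sided exact permutation of group means (scipy 1.17.1). Marker scores are mean log2 values of a list. The limma fits were checked on simulated data.

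Named by rule were the members, Brd1 and Slc6a2 to Slc6a4, the highest and lowest gene of each pathway list, up to 3 list genes per comparison with the smallest unadjusted p under 0.01, the 3 genes most like each member, and the highest gene of each marker list; some genes that the rule names are not reported here. Members and lists were chosen with earlier results of these data known. Alternatives were other pseudocounts, filters, scalings, score covariates, a replicate block, a joint fit and omission of libraries.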

Additional observations from a re-analysis of the deposited data

Results flagged for a closer look

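In 1 of 40 groups of values examined, a single library lay far from the others of its group by Dixon's criterion, which chance alone meets in about 1 of 20 groups. Slc29a4 was at 11.3 TPM in Brd1+/- vehicle replicate 6, where the other 8 libraries of the group lay between 3.67 and 7.27 TPM, a gap of 0.53 of the group's range. This library also had the highest striatal and choroid plexus marker scores of all 36, and their part in the value was not tested.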

How the results depend on the processing

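No value of the 4 genes passed the adjusted threshold under any setting tried; the lowest adjusted p was 0.351 (Slc22a3, IMN in WT mice, without WT vehicle replicate 1). Of 28 differences, 17 values of 9 differences changed sign, all near 0 but that of Slc29a4. For Maoa these were IMN over both genotypes at 0.0021 (median-ratio scaling), 0.015 (mitochondrially encoded genes left out) and 0.0079 (2 libraries left out), IMN in Brd1+/- mice at 0.0094 and 0.014 (the same omissions), IMN in WT mice at -0.024 (astrocyte and oligodendrocyte scores in the fit), and the interaction at 0.0033 (scores) and 0.013 (2 libraries left out). For Maob they were Brd1+/- IMN against WT IMN at -0.0030 (median-ratio), -0.0056 (quantile) and -0.018 (scores), and IMN in WT mice at 0.0030 (scores). Slc29a4 over both treatments was -0.11 for genotype with 2 libraries left out, in place of 0.053. That omission took out the lowest WT vehicle value (1.34 TPM) and the highest Brd1+/- vehicle value (11.3 TPM) of Slc29a4, which lowers its genotype difference with vehicle. The cause of the other sign changes was not tested. The 2 libraries are WT vehicle replicate 1 and Brd1+/- vehicle replicate 6, chosen after the data were seen.

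With a replicate block, Maoa was -0.012 for genotype with vehicle, -0.0014 for genotype with IMN and -0.0012 for IMN in WT mice, Maob was -0.0051 for genotype with IMN, and Slc22a3 was -0.49 for IMN in WT mice (adjusted p = 0.595). The numbers did not pair the mice: over 51 pairs of same-numbered samples the correlation of deviations ran from -0.26 to 0.26, and in 1 case a sample correlated best with its own number. The block moved the genes called for IMN over both genotypes from 70 to 37 and in Brd1+/- mice from 2 to 0, and Sult1a1 stayed past the threshold (0.64, adjusted p = 0.00724).

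Leaving out 1 library at a time, Maoa ran from -0.058 to 0.028 for IMN in Brd1+/- mice, -0.031 to 0.048 for genotype with IMN, -0.0041 to 0.042 for genotype over both treatments, -0.020 to 0.074 for genotype with vehicle, -0.028 to 0.020 for IMN over both genotypes, -0.043 to 0.050 for IMN in WT mice and -0.060 to 0.034 for the interaction. Maob ran from -0.056 to 0.051 for genotype with IMN and -0.10 to 0.041 for IMN in WT mice, and Slc29a4 from -0.0082 to 0.20 for IMN in Brd1+/- mice and -0.064 to 0.10 for genotype over both treatments. Sult1a1 over both genotypes ran from 0.60 to 0.68 and Egr1 from -0.71 to -0.60, past the threshold each time. Counts over all genes moved more: for IMN over both genotypes they ran from 35 (without WT vehicle replicate 3) to 170 (without WT vehicle replicate 1) in place of 70, and without the latter 32 genes in place of 0 were called for IMN in WT mice.

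Of the 50 correlations, 7 changed sign, none of which had passed: with median-ratio scaling Maoa with microglia (-0.11) and immediate-early genes (-0.058) and Maob with deep layers (-0.080), and without the 2 farthest libraries Maoa with endothelial and mural markers (0.0059), Slc22a3 with striatal markers (-0.14) and with Maoa (0.0031), and Slc29a4 with striatal markers (-0.14). A filter at a mean of 1 TPM left Slc22a3 out. Precision is limited by an unknown depth and, for Slc22a3, by its low level.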
